A study of Mus musculus with 8 samples.

Results

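The genes described here are the mouse Toll-like receptors Tlr1, Tlr2, Tlr3, Tlr4, Tlr6, Tlr7, Tlr8, Tlr9 and Tlr13 together with Cd14, 10 of the 55414 genes in the count table. They were chosen by name, for their function, and grouped into 4 surface receptors (Tlr1, Tlr2, Tlr4 and Tlr6), 5 endosomal receptors (Tlr3, Tlr7, Tlr8, Tlr9 and Tlr13) and the co-receptor Cd14. Bulk RNA sequencing of macrophages from mouse skin wounds gave their levels, with 5 libraries (a to e) made 3 days after injury and 3 libraries (a to c) made 1 day after injury. Cells were captured on magnetic beads through F4/80, the macrophage surface protein that Adgre1 encodes, from digested tissue of the wound bed. Each library pooled 6 wounds taken from 3 mice. The labels give no strain, sex, age or genotype, and name no treatment other than the injury on either day. They do not say whether any mouse contributed to several pools, and the p-values therefore cover pool-to-pool spread alone. Of 6 samples stated for each time point, 5 from day 3 and 3 from day 1 were analysed here.

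Toll-like receptors recognise conserved microbial molecules, and some molecules released by damaged tissue, through an extracellular domain of leucine-rich repeats. Surface members bind lipids, lipopeptides and proteins, whereas endosomal members bind nucleic acids after transport from the endoplasmic reticulum and cleavage by lysosomal proteases. All of these receptors except Tlr3 signal through the adaptor Myd88 towards NF-kB, and Tlr3 and internalised Tlr4 use the adaptor Ticam1 to induce type I interferon. In macrophages of a wound these receptors are known as sensors of bacteria on the open skin and of debris.

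Tlr1 and Tlr6, each of which pairs with Tlr2, are neighbours on chromosome 5, and their coding sequences are so alike in places that a read cannot always tell them apart. The longest run of identical bases between the coding sequences of Tlr1 (2388 bases) and Tlr6 (2421 bases) was 229 bases, against at most 16 for any other pair of the 10 genes. Over 2364 aligned coding bases, 75.6% were identical. Of all windows of 100 bases in the Tlr1 coding sequence, 11.3% occurred whole in Tlr6, and of windows of 150 bases, 6.21%. The stretch where the identical run ends is shown because reads can be told apart only through differing positions such as those in it (5′ to 3′, GENCODE transcripts on GRCm38, Tlr1 coding bases 1597 to 1756 and Tlr6 coding bases 1636 to 1795). Capitals mark the 2 positions of 160 at which the genes differ.
Tlr1: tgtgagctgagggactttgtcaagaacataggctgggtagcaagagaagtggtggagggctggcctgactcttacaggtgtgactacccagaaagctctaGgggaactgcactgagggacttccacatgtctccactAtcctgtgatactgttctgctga
Tlr6: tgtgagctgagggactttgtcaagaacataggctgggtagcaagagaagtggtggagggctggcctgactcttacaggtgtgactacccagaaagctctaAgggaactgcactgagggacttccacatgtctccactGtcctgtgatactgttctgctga
The recorded counting command holds no option that asks for reads with several positions to be counted. The aligner, which decides how such reads are marked, was not named. Whether all of them were left out of both Tlr1 and Tlr6 is therefore uncertain.

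The promoters of the most abundant receptor of each class are shown as a reference for the values below, from RefSeq on GRCm38.p6 (250 bases before to 50 bases after the start site, 5′ to 3′ on the gene's strand). Capitals in the Tlr2 window (chr3:83841559-83841858, minus strand) mark matches to the NF-kB consensus. Those in the Tlr13 window (chrX:106143025-106143324, plus strand) mark the sequence GAGGAA, a longer form of the ETS core.
Tlr2 promoter: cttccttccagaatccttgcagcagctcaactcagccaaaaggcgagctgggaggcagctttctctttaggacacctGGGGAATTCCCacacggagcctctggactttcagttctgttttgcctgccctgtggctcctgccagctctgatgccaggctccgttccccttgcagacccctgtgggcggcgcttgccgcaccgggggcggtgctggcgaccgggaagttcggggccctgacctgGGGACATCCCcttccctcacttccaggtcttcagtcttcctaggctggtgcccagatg
Tlr13 promoter: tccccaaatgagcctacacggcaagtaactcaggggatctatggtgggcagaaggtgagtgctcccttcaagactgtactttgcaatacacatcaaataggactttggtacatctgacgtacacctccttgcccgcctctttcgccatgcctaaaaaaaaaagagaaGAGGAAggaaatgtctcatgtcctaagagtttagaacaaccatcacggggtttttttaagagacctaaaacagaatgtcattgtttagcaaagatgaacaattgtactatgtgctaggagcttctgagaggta
Windows were found for 7 of the 10 genes, with none for Tlr4, Tlr7 and Cd14. They were searched on both strands for the NF-kB consensus, the interferon-stimulated response element core GAAANNGAAA, the ETS-type sequence GAGGAA and the AP-1 site TGANTCA. The shorter ETS core GGAA was not searched. Of 32851 mouse promoters of the same length, 4.51% held the NF-kB consensus, 3.44% the interferon-stimulated element, 28.3% GAGGAA and 7.81% the AP-1 site. Tlr2 held the NF-kB consensus at 2 places, the upstream one as overlapping matches, and Tlr3 also held one match. Tlr6 held overlapping matches to the interferon-stimulated element in 1 of its windows. GAGGAA was in windows of Tlr1, Tlr8, Tlr9 and Tlr13, and the AP-1 site only in that of Tlr9 among the windows searched. A match describes letters in the window and was not tested as a binding site.

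The libraries held between 41566151 and 60289310 counts each. Levels are given as CPM, which is counts scaled to a library total of 1000000, with totals adjusted by TMM factors, and a count of 3, taken as the limit of detection, stood for between 0.0501 and 0.0755 CPM. Markers of macrophages, summed over 12 genes, ranged from 55426 to 66141 CPM in the day 3 libraries and from 24909 to 33815 CPM in the day 1 libraries. Most of that difference lay in Apoe, an apolipoprotein, with 28039 ± 1480 CPM at day 3 and 8724 ± 4116 CPM at day 1, and in Lyz2, a lysozyme, with 19781 ± 2908 CPM at day 3 and 8167 ± 1609 CPM at day 1 (SD, n = 5 and 3). Of the 12 genes 7 had a log2 fold change above 0 and 5 below, with a median of 0.21, and the days overlapped for 6. Adgre1, the gene of the selected protein, was detected in every library, with 1129 ± 76.3 CPM at day 3 and 819 ± 126 CPM at day 1 (SD, n = 5 and 3). The 14 neutrophil markers summed to 680.0, 691, 802, 999 and 5157 CPM at day 3, the highest in library b, against 1214, 3139 and 4841 CPM at day 1, the lowest in library a. The 10 inflammatory monocyte markers summed to between 6063 and 10355 CPM at day 3 and between 10478 and 12973 CPM at day 1. Sums of fibroblast markers (57.6 to 125 CPM at day 3, 9.49 to 39.5 CPM at day 1), endothelial markers (13.5 to 27.1 CPM at day 3, 36.1 to 70.2 CPM at day 1) and mast cell and basophil markers (0.114 to 3.96 CPM at day 3, 4.05 to 11.7 CPM at day 1) did not overlap between the days either. The part of these cells in the members' values was not tested. More genes had a count at day 1 (23928 to 27315) than at day 3 (14952 to 20557). In bulk RNA a change in the share of cells of a type cannot be told apart from a change in the RNA of each cell.

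No member passed the main test of day 3 against day 1, the quasi-likelihood F test of edgeR with Benjamini-Hochberg adjustment over 15371 genes and a threshold of 0.05. That test called 2 genes in all, 0.0130% of those tested. All 10 members had enough counts to be tested. Of the log2 fold changes (day 3 minus day 1), 5 were above 0 and 5 below 0. Their median was 0.0041, against -0.17 over all genes tested. At an unadjusted p under 0.05 stood 1 member, Tlr4, against 15.7% of all genes, and at an edgeR adjusted p under 0.1 stood the same member, against 4.78%. DESeq2 called 1 member, also Tlr4, and 6.64% of all genes, and limma voom called 0 members and 5.37% of all genes. The ranges of both days did not overlap for 1 member, again Tlr4, against 14.1% of all genes.

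**Figure D1:**
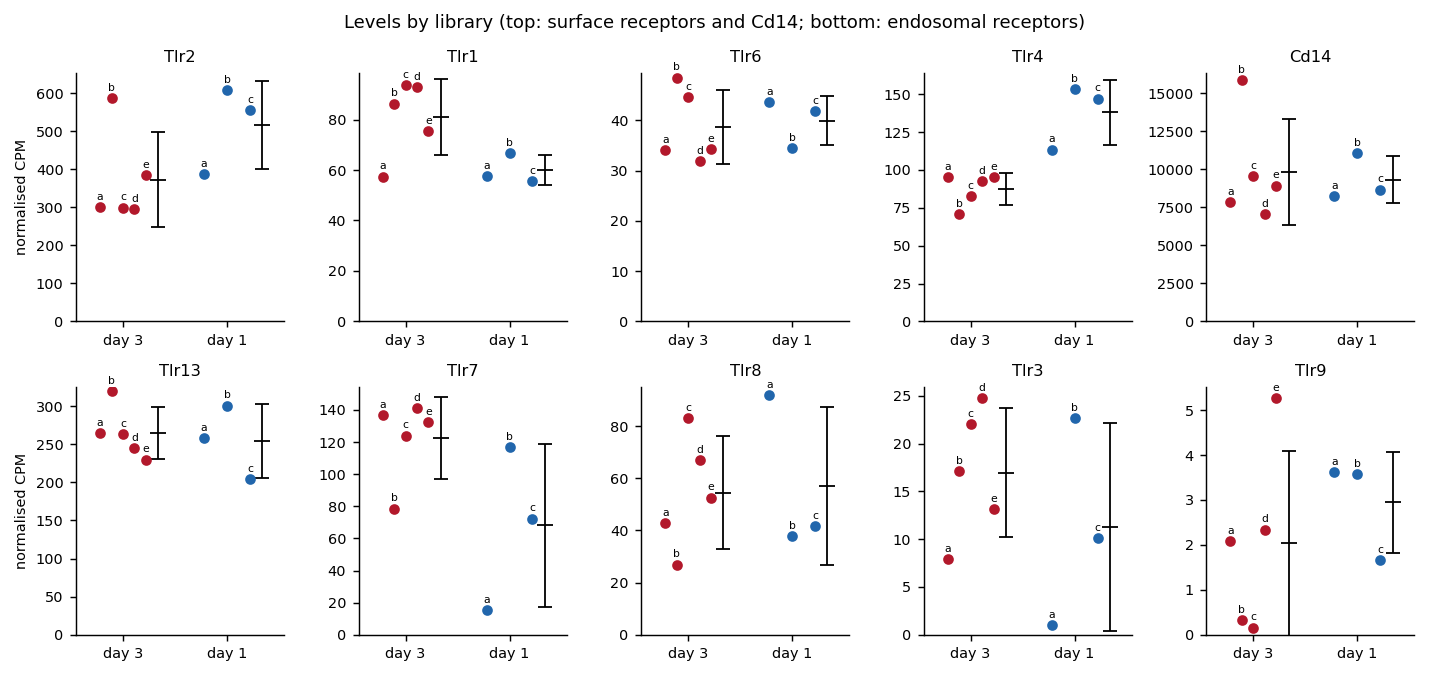
Normalised CPM of each of the 10 genes (vertical axis, from 0) in the day 3 libraries (red, a to e) and the day 1 libraries (blue, a to c), with bars for the mean ± SD. Tlr4 is the only panel in which all day 3 points (71.1 to 95.4 CPM) lie outside the range of the day 1 points (113 to 153 CPM).

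Among the surface receptors, Tlr4, the receptor for bacterial lipopolysaccharide (chr4:66745821-66848521, plus strand, GRCm39), was lower in every day 3 library than in any day 1 library. It had 95.2, 71.1, 82.7, 92.8 and 95.4 CPM in day 3 libraries a to e, against 113, 153 and 147 CPM in day 1 libraries a to c. The days did not overlap, and day 3 b was the lowest library. The means were 87.4 ± 10.5 CPM at day 3 and 138 ± 21.5 CPM at day 1 (SD, n = 5 and 3). The log2 fold change of Tlr4 was -0.66 ± 0.17 (SE, 95% interval -1.04 to -0.27), or a fold of 0.634 (0.486 to 0.827). The adjusted p was 0.0889 in edgeR, 0.0542 in limma voom and 0.0191 in DESeq2, so the call depended on the tool, and it ranged from 0.0191 to 0.520 over the 18 alternatives run. Its log2 fold change lay between -0.80 and -0.57 when any 1 library was left out, and 31.9% of all genes tested had a lower value. The summed macrophage and monocyte markers were separate between the days too, and their part in the Tlr4 values was not tested.

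Tlr2, which recognises bacterial lipopeptides as a pair with Tlr1 or Tlr6 (chr3:83743579-83749074, minus strand, GRCm39), was the most abundant receptor per length on both days. It had 299.8, 586, 299, 295 and 385 CPM in day 3 libraries a to e, against 387, 608 and 556 CPM in day 1 libraries a to c. Library b lay far above the other 4 at day 3, all of which were below the lowest day 1 library. The log2 fold change was -0.47 ± 0.26 (95% interval -1.07 to 0.12, edgeR adjusted p = 0.444) over all libraries and -0.69 ± 0.20 (edgeR adjusted p = 0.128, with a range of 0.128 to 0.749 over the alternatives run) once day 3 b was removed. Day 3 b, day 1 b and day 1 c were the 3 libraries highest in Tlr2 and also those with the highest summed neutrophil markers, whose part in the result was not tested.

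Tlr1, the partner of Tlr2 for triacylated lipopeptides (chr5:65082022-65090906, minus strand, GRCm39), had 57.4, 86.3, 93.7, 92.7 and 75.5 CPM in day 3 libraries a to e, against 57.5, 66.8 and 55.6 CPM in day 1 libraries a to c. In 4 of 5 day 3 libraries it exceeded every day 1 library, and day 3 a lay within the day 1 range. The log2 fold change was 0.44 ± 0.20 (95% interval -0.02 to 0.90, edgeR adjusted p = 0.348). Tlr6, the partner of Tlr2 for diacylated lipopeptides (chr5:65109374-65117440, minus strand, GRCm39), had 34.1, 48.5, 44.6, 31.8 and 34.3 CPM in day 3 libraries, against 43.6, 34.5 and 41.8 CPM in day 1 libraries. Its days overlapped almost completely, and the interval of its log2 fold change ran from -0.55 to 0.45 around -0.05 (edgeR adjusted p = 0.949). The ratio of Tlr1 to Tlr6 per kilobase averaged 2.38 ± 0.540 at day 3 and 1.70 ± 0.395 at day 1 (SD, n = 5 and 3), with overlapping ranges.

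Cd14, which hands lipopolysaccharide to Tlr4 and also serves Tlr2 (chr18:36858120-36859851, minus strand, GRCm39), had 7855, 15851, 9555, 7067 and 8939 CPM in day 3 libraries a to e, against 8230.1, 11079 and 8677 CPM in day 1 libraries a to c. The day 1 range lay wholly within the day 3 range, which day 3 b extended at the top. The means were 9853 ± 3488 CPM at day 3 and 9329 ± 1532 CPM at day 1 (SD, n = 5 and 3), which gave a log2 fold change near 0, at 0.08 ± 0.27 (95% interval -0.52 to 0.68, edgeR adjusted p = 0.928). Without day 3 b it was -0.16 ± 0.18. Day 3 b was the library highest in both Cd14 and neutrophil markers. Among day 3 libraries it was also highest in summed inflammatory monocyte markers, at 10355 CPM against at most 7287 CPM. The same held for each of the 15 early NF-kB target genes listed below. The part of any of these in the result was not tested.

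**Figure D2:**
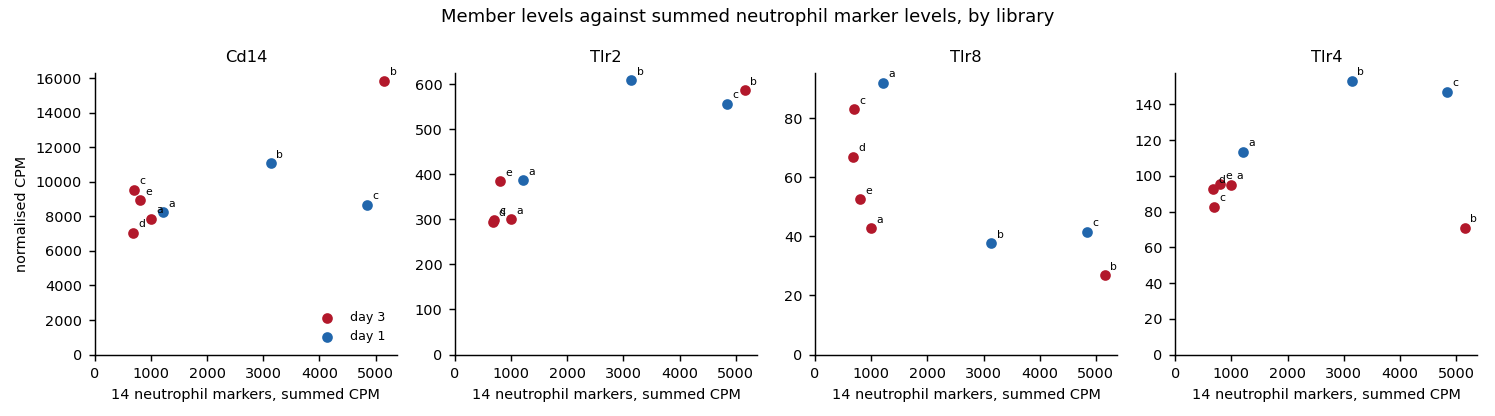
Normalised CPM of Cd14, Tlr2, Tlr8 and Tlr4 (vertical axes) against the summed CPM of 14 neutrophil markers (horizontal axes), 1 point per library, day 3 in red and day 1 in blue. Day 3 b, at 5157 CPM of neutrophil markers, is the highest point for Cd14 and the lowest for Tlr8 and Tlr4, while the other day 3 libraries lie at 999 CPM or less.

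Day 3 b also stood apart in the balance of the 2 main bacterial sensors at the surface. The ratio of Tlr2 to Tlr4 per kilobase was 5.81, 15.2, 6.66, 5.85 and 7.44 in day 3 libraries a to e, against 6.29, 7.31 and 6.97 in day 1 libraries a to c. Outside day 3 b the ratios of day 3 and day 1 overlapped. The neutrophil markers S100a8 and S100a9, which are also proposed ligands of Tlr4, had 1773 and 1062 CPM in day 3 b, and at most 253 and 137 CPM in the other day 3 libraries. At day 1, S100a8 ranged from 259 to 1522 CPM and S100a9 from 161 to 1056 CPM. The neutrophil-restricted surface gene Ly6g reached 6.83 CPM in day 3 b and 6.81 CPM in day 1 c, and was below detection in day 3 c, d and e.

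Among the endosomal receptors, Tlr13, the mouse receptor for bacterial ribosomal RNA (chrX:105186810-105204099, plus strand, GRCm39), was the most abundant per length and varied least between libraries. It had 264, 319.8, 263, 245 and 229.8 CPM in day 3 libraries a to e, against 258, 301 and 204 CPM in day 1 libraries a to c. The days overlapped, with a log2 fold change of 0.06 ± 0.18 (95% interval -0.34 to 0.45, edgeR adjusted p = 0.923).

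Tlr7, the receptor for single-stranded RNA (chrX:166087925-166113554, minus strand, GRCm39), had 137, 78.6, 124, 141 and 132.5 CPM in day 3 libraries a to e, against 15.6, 117 and 72.4 CPM in day 1 libraries a to c. In 4 of 5 day 3 libraries it exceeded every day 1 library, and the fold between its day 1 libraries was larger than that between the days. The means were 123 ± 25.4 CPM at day 3 and 68.2 ± 50.7 CPM at day 1 (SD, n = 5 and 3). The log2 fold change was 0.85 ± 0.51 (95% interval -0.30 to 1.99, edgeR adjusted p = 0.486). Its size depended on day 1 a and on day 1 b, since the value was 0.36 without day 1 a and 1.48 without day 1 b. Without day 1 c it was 0.88.

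Tlr3, the receptor for double-stranded RNA (chr8:45848702-45864117, minus strand, GRCm39), had 7.88, 17.1, 22.01, 24.8 and 13.1 CPM in day 3 libraries a to e, against 0.982, 22.7 and 10.1 CPM in day 1 libraries a to c. Like Tlr7 it was far lowest in day 1 a, where 39 reads were counted for Tlr3 and 618 for Tlr7. Its log2 fold change was 0.59 ± 0.79 (95% interval -1.17 to 2.35, edgeR adjusted p = 0.792). Leaving out day 1 a gave 0.03 and leaving out day 1 b gave 1.5996. Of 5207 exon bases of Tlr3, 381 were shared with the predicted gene Gm45542 on the opposite strand, which had 0 counts in all libraries. With no strand option recorded, reads in the shared bases may have been left out of both genes. No exon base of the other 9 members was shared with another gene.

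Tlr8, the neighbour of Tlr7 on chromosome X and a receptor for RNA breakdown products in humans (chrX:166025692-166047325, minus strand, GRCm39), had 42.8, 26.9, 83.1, 66.9 and 52.6 CPM in day 3 libraries a to e, against 92.0, 37.8 and 41.6 CPM in day 1 libraries a to c. The highest library of all was day 1 a, the one lowest in Tlr7 and Tlr3, and the lowest was day 3 b. The log2 fold change was -0.07 ± 0.40 (95% interval -0.97 to 0.84, edgeR adjusted p = 0.960), and it was 0.43 without day 1 a. The ratio of Tlr7 to Tlr8 per kilobase was 2.81, 2.56, 1.31, 1.85 and 2.21 in day 3 libraries a to e, against 0.149, 2.72 and 1.53 in day 1 libraries a to c. Day 1 a was the only library in which Tlr8 exceeded Tlr7 per kilobase.

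Tlr9, the receptor for unmethylated CpG DNA (chr9:106099797-106104082, plus strand, GRCm39), was the lowest member, with 2.09, 0.325, 0.157, 2.34 and 5.26 CPM in day 3 libraries a to e, against 3.62, 3.57 and 1.66 CPM in day 1 libraries a to c. These levels rested on between 8 and 276 counts at day 3 and between 91 and 214 at day 1, and the 95% interval of the log2 fold change was wide, from -3.11 to 2.04 around -0.54 (edgeR adjusted p = 0.886). The value was -1.26 without day 3 e, -0.82 without day 1 c, -0.26 without day 3 b, -0.23 without day 3 c and -1.32 with limma voom, and over the letters a to c it was -1.72, or -2.57 with the letter as a replicate block. Tlr7 and Tlr9 are also known from plasmacytoid dendritic cells and B cells. Of 7 plasmacytoid markers, the defining gene Siglech was at 2.72 CPM or less at day 3 and 3.57 CPM or less at day 1, and Klk1 was at 0 in every library. The 7 genes summed to between 398 and 434 CPM at day 3 and between 472 and 696 CPM at day 1, mostly through Bst2 and Tcf4, which other cells express too. Of 8 B and plasma cell markers, the defining gene Cd79a was at most 0.0759 CPM at day 3 and 0.182 CPM at day 1. The 8 genes summed to between 105 and 213 CPM at day 3 and between 33.2 and 103 CPM at day 1, mostly through Ighm and Cd79b. The part of such cells in the Tlr7 and Tlr9 values was not tested.

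**Figure D3:**
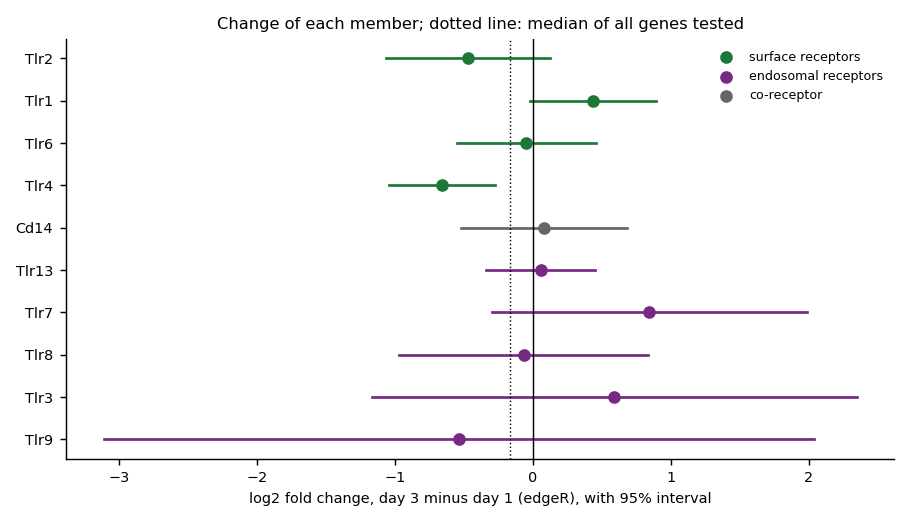
Log2 fold change of each gene, day 3 minus day 1, from edgeR (horizontal axis), with its 95% interval; colours give the class, the solid line marks 0 and the dotted line the median of all genes tested (-0.17). The interval of Tlr4 (-1.04 to -0.27) is the only one that excludes 0, and that of Tlr9 (-3.11 to 2.04) is the widest.

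Levels of different genes were compared as CPM per kilobase of counted exon length. In day 3 libraries Cd14 averaged 5689 ± 2014 CPM per kb, Tlr2 124 ± 41.5, Tlr13 61.4 ± 7.92, Tlr7 30.0 ± 6.22, Tlr1 24.2 ± 4.51, Tlr4 15.7 ± 1.89, Tlr8 15.2 ± 6.03, Tlr6 10.4 ± 1.98, Tlr3 3.26 ± 1.30 and Tlr9 0.585 ± 0.592 (SD, n = 5). In day 1 libraries the averages were 5386 ± 884 for Cd14, 172 ± 38.3 for Tlr2, 59.1 ± 11.3 for Tlr13, 24.8 ± 3.86 for Tlr4, 17.9 ± 1.80 for Tlr1, 16.7 ± 12.4 for Tlr7, 15.9 ± 8.43 for Tlr8, 10.7 ± 1.30 for Tlr6, 2.17 ± 2.09 for Tlr3 and 0.848 ± 0.322 for Tlr9 (SD, n = 3). Cd14 was thus far above every receptor on both days, followed by Tlr2 and Tlr13 with no overlap between neighbours. Tlr4 ranked 6 of 10 at day 3 and 4 of 10 at day 1, and Tlr7 ranked 4 at day 3 and 6 at day 1. At day 3 the ranges of neighbours overlapped for Tlr7 and Tlr1, Tlr1 and Tlr4, Tlr4 and Tlr8, and Tlr8 and Tlr6. At day 1 they overlapped for Tlr1 and Tlr7, Tlr7 and Tlr8, Tlr8 and Tlr6, and Tlr3 and Tlr9.

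The endosomal share of the receptor signal, meaning the CPM per kb of the 5 endosomal receptors as a percentage of that of all 9 receptors, was higher in 4 of 5 day 3 libraries than in any day 1 library. It was 43.3%, 29.8%, 43.6%, 43.4% and 37.2% in day 3 libraries a to e, against 33.8%, 30.7% and 24.9% in day 1 libraries a to c. Only day 3 b lay within the day 1 range. The means were 39.4 ± 6.03% at day 3 and 29.8 ± 4.51% at day 1 (SD, n = 5 and 3), a difference of 9.68 percentage points, given as a description with no test since the genes were chosen. The summed endosomal receptors averaged 110.5 ± 6.53 CPM per kb at day 3 and 94.7 ± 18.0 at day 1, and the summed surface receptors 174 ± 42.2 at day 3 and 225 ± 42.1 at day 1. Both sums overlapped between the days. Most of the difference in each sum lay in 1 gene. These were Tlr7 (30.0 CPM per kb at day 3, 16.7 at day 1) and Tlr2 (124 at day 3, 172 at day 1), both with overlapping days. The averages of Tlr8 and Tlr9, lower at day 3, and of Tlr1, higher at day 3, went the other way from the sums of their classes. The median log2 fold change was 0.06 for the endosomal receptors and -0.26 for the surface receptors.

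**Figure D4:**
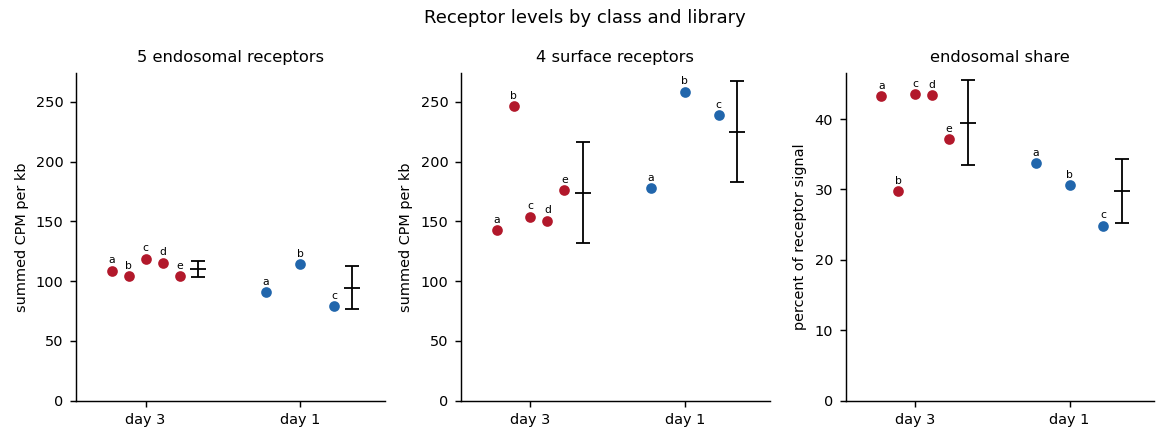
Summed CPM per kb of the 5 endosomal and 4 surface receptors, and the endosomal share in percent (vertical axes, from 0), in the day 3 libraries (red) and day 1 libraries (blue), with bars for the mean ± SD. The endosomal share lies at 37.2% or more in 4 day 3 libraries and at 33.8% or less in day 3 b and the day 1 libraries.

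How the members varied together was described over the 8 libraries, which share the day and any difference in cell content, so no p is given. Of 45 pairs, Tlr3 and Tlr7 had the highest Pearson r of log2 CPM, 0.89 (Spearman rho 0.48), which was 0.63 without the 2 libraries farthest from the median of Tlr3 (day 1 a and day 3 a). Tlr2 and Cd14 had an r of 0.70 (rho 0.67), 0.30 without the 2 farthest libraries in Tlr2. Tlr2 and Tlr8 had the lowest r, -0.69 (rho -0.69), -0.38 without the same libraries.

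For each member the gene most like it and the gene least like it over the 8 libraries were sought among 3871 well-expressed genes, where a high r is reached by some gene in any case. Tlr4 was least like Abca1, a cholesterol exporter (r = -0.97, rho -0.95, and -0.90 without the 2 farthest libraries). Values without the 2 farthest libraries come from libraries also used for the choice, so they are no separate check. Tlr2 was most like Slc31a2, a copper transporter (r = 0.96, rho 1.00), and Tlr13 was most like Ube2b, a ubiquitin-conjugating enzyme (r = 0.97, rho 1.00). Tlr7 was most like Socs6, a suppressor of cytokine signalling (r = 0.99, rho 0.88), and Tlr1 most like BC005624 (r = 0.97, rho 0.90). Tlr8 was most like Ankle2 (r = 0.98, rho 0.95) and least like Cxcl1, a chemokine that attracts neutrophils (r = -0.96, rho -0.93, and -0.96 without the 2 farthest libraries). The closest genes to Cd14 (Plek, r = 0.95, rho 0.71), Tlr3 (Trappc6b, r = 0.97, rho 0.83) and Tlr9 (Exoc2, r = 0.93, rho 0.81) rested more on a few libraries, with r of 0.65, 0.68 and 0.66 without the 2 farthest. Tlr6 was most like Fam91a1 (r = 0.92, rho 0.69). The genes least like the other members were Dap3 for Tlr1, Tmem126b for Tlr2, Timm50 for Tlr6, Lgals8 for Tlr3, Arih2 for Tlr7, Ccng1 for Tlr9, Sdhc for Tlr13 and Baz1b for Cd14, with r between -0.97 and -0.83 and rho between -0.98 and -0.60. Without the 2 farthest libraries r was -0.26 for Ccng1 and -0.59 for Baz1b, and between -0.97 and -0.80 for the other 6.

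The rest of the pathway was described through 11 lists with 122 symbols, of which 121 were found and 117 tested. edgeR called 0 of these 117 genes, and 33 had an unadjusted p under 0.05, against 15.7% of all genes. A stricter filter on low counts, which kept the 8142 genes that averaged 5 CPM or more and reached 1 CPM in each library of either day, gave 146 calls, 1.79% of the genes tested (0.774% higher and 1.02% lower at day 3). Under it 7 of 104 pathway genes were called, 1 higher and 6 lower at day 3, and 9 of the 10 members were tested with 0 called. DESeq2 called 18 of the 117 genes, 4 higher and 14 lower, against 6.64% of all genes. The median log2 fold change of the 117 genes was -0.37. The genes called under the stricter filter, or by DESeq2 among regulators and factors, were singled out after their values were seen, as were Hsp90b1, Ly96, Unc93b1, Hmgb1, Ier3 and Vcan.

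Of 7 genes for co-receptors and ligand transfer, 5 had a log2 fold change above 0 and 2 below, with 0 called under any of edgeR, the stricter filter and DESeq2. Ly96, the subunit of the Tlr4 complex that holds lipopolysaccharide, had 68.0 ± 6.51 CPM at day 3 and 59.2 ± 5.46 CPM at day 1 (SD, n = 5 and 3), and its log2 fold change was 0.20 ± 0.17. The sign was opposite to that of Tlr4, with overlapping days and no call. Cd36, a scavenger receptor that serves Tlr2 with Tlr6, had 1342 ± 332 CPM at day 3 and 864 ± 480 CPM at day 1, and Itgb2, the shared chain of leukocyte integrins, had 839 ± 145 CPM at day 3 and 1124 ± 195 CPM at day 1.

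Of 13 genes for receptor folding, transport and proteolysis, 5 had a log2 fold change above 0 and 8 below, and DESeq2 called 1, lower at day 3. That gene was Hsp90b1, the chaperone that folds most Toll-like receptors, with 489 ± 63.0 CPM at day 3 and 859 ± 248 CPM at day 1 (log2 fold change -0.81 ± 0.20, adjusted p = 0.0837 in edgeR and 0.0091 in DESeq2). Its days did not overlap. Unc93b1, which carries the nucleic acid receptors to endosomes, had 228, 208, 221, 371 and 449.7 CPM in day 3 libraries a to e, against 334, 291 and 608 CPM in day 1 libraries a to c, with overlapping days. The lysosomal proteases Lgmn and Ctss, which cleave endosomal receptors, were the most abundant of the list per length. Lgmn had 8367 ± 439 CPM at day 3 and 7841 ± 2551 CPM at day 1, and Ctss had 12441 ± 705 CPM at day 3 and 7421 ± 2850 CPM at day 1. Ctss did not overlap between the days (log2 fold change 0.75 ± 0.26, edgeR adjusted p = 0.180).

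Of 7 tested genes for nucleic acid processing in the endolysosome, 4 had a log2 fold change above 0 and 3 below, and DESeq2 called 1. That gene was Hmgb1, a nucleic acid binding protein that is also an endogenous ligand, with 295 ± 23.7 CPM at day 3 and 189 ± 32.6 CPM at day 1 (log2 fold change 0.64 ± 0.16, adjusted p = 0.0854 in edgeR and 0.0095 in DESeq2). The exonucleases Pld3 and Pld4, which limit nucleic acid sensing, had 278 ± 65.3 and 888 ± 120.1 CPM at day 3 and 293 ± 74.7 and 629 ± 199 CPM at day 1, with overlapping days for both.

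Of 7 adaptors tested, 1 had a log2 fold change above 0 and 6 below. Myd88, the adaptor of all members but Tlr3 and Cd14, had 99.6, 74.4, 109.7, 77.6 and 89.4 CPM in day 3 libraries a to e, against 95.7, 85.7 and 210.2 CPM in day 1 libraries a to c. Only day 1 c lay outside the day 3 range, and the log2 fold change was -0.53 ± 0.29 (edgeR adjusted p = 0.433). Pik3ap1, an adaptor that links Toll-like receptors to PI3K, was the adaptor called by DESeq2 (146 ± 36.7 CPM at day 3 and 253 ± 24.1 CPM at day 1, log2 fold change -0.80 ± 0.21, adjusted p = 0.0907 in edgeR and 0.0168 in DESeq2).

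Of 18 kinases and ubiquitin ligases, 7 had a log2 fold change above 0 and 11 below, and the stricter filter gave 1 call in each direction. Map3k8, the kinase that carries Toll-like receptor signals to ERK, had 379, 445, 377, 373 and 350.2 CPM in day 3 libraries a to e, against 133, 214 and 119 CPM in day 1 libraries a to c. Every day 3 library exceeded every day 1 library (log2 fold change 1.31 ± 0.22, edgeR adjusted p = 0.0603, and 0.0263 with the stricter filter). Ikbke, a kinase that activates interferon regulatory factors, had 28.5, 36.8, 21.3, 22.3 and 18.9 CPM in day 3 libraries, against 94.1, 52.3 and 107 CPM in day 1 libraries. It was lower in every day 3 library (log2 fold change -1.73 ± 0.30, edgeR adjusted p = 0.0620, and 0.0295 with the stricter filter). Ube2n, a ubiquitin-conjugating enzyme that works with Traf6, had 173 ± 15.5 CPM at day 3 and 178 ± 9.73 CPM at day 1.

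Of 16 negative regulators, 3 had a log2 fold change above 0 and 13 below, and 0 were called under the stricter filter. DESeq2 called 2 of them, Cd300a, an inhibitory receptor, with 309 ± 17.2 CPM at day 3 and 145 ± 74.1 CPM at day 1 (DESeq2 adjusted p = 0.0101), and Tollip, a Toll-interacting protein, with 99.9 ± 10.4 CPM at day 3 and 153 ± 33.9 CPM at day 1 (DESeq2 adjusted p = 0.0498). Nfkbia, the inhibitor of NF-kB that NF-kB itself induces, had 1788 ± 561 CPM at day 3 and 2160 ± 1421 CPM at day 1 with overlapping days, and Pirb, an inhibitory receptor, had 281 ± 35.8 CPM at day 3 and 381 ± 116 CPM at day 1. Of 13 downstream transcription factors, 3 had a log2 fold change above 0 and 10 below, and the stricter filter called 1. That was Irf7, the factor that drives type I interferon genes after Tlr7 or Tlr9, with 322 ± 86.5 CPM at day 3 and 876 ± 211 CPM at day 1 (log2 fold change -1.44 ± 0.25, edgeR adjusted p = 0.0630, and 0.0307 with the stricter filter). Fos and Atf3, both immediate early factors, had 2780 ± 797 and 928 ± 189 CPM at day 3 and 1631 ± 696 and 585 ± 115 CPM at day 1, and Atf3 did not overlap between the days (edgeR adjusted p = 0.157, DESeq2 adjusted p = 0.0411). Besides Atf3 and Irf7, DESeq2 called Irf5, another interferon regulatory factor, with 53.4 ± 14.7 CPM at day 3 and 158 ± 109 CPM at day 1 (DESeq2 adjusted p = 0.00519).

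Target genes were listed for both branches of the pathway. Of 15 early NF-kB target genes, 3 had a log2 fold change above 0 and 12 below, 0 had days that did not overlap, and the median was -0.41. The stricter filter called 0 of them. DESeq2 called 1, Ier3, lower at day 3 (log2 fold change -1.19 ± 0.36, adjusted p = 0.132 in edgeR and 0.0243 in DESeq2). Cxcl2 had 2223 ± 1256 CPM at day 3 and 4366 ± 2705 CPM at day 1, and Ccl4 had 1335 ± 544 CPM at day 3 and 1779 ± 653 CPM at day 1. Of 10 interferon target genes, 0 had a log2 fold change above 0 and 10 below, and the median was -1.43. For 6 the days did not overlap, all lower at day 3, against 14.1% of all genes in either direction. The lists were chosen with earlier results of these data known, so these counts are a description and no test of the list. The stricter filter called 4 of 9 interferon target genes, Isg15, Rsad2, Oasl1 and Cmpk2, all lower at day 3. DESeq2 called 6 of the 10, also all lower. Isg15, a ubiquitin-like protein, had 291, 150.3, 273, 216 and 166 CPM in day 3 libraries a to e, against 1025, 674 and 546 CPM in day 1 libraries a to c. Its log2 fold change was -1.77 ± 0.27 (edgeR adjusted p = 0.0603, and 0.0263 with the stricter filter). Ifit3, with Isg15 the most abundant gene of this list per length, overlapped between the days, with 309 ± 112 CPM at day 3 and 486 ± 211 CPM at day 1. The difference between both lists was not tested, and it depended on the libraries used. Leaving out 1 library gave NF-kB medians between -1.08 (without day 3 b) and -0.033 (without day 1 c), with -0.86 without day 1 a, and interferon medians between -1.55 and -1.24. Without day 1 a and day 3 b together, a setting chosen after seeing the data, the medians were -1.42 for the NF-kB targets and -1.20 for the interferon targets.

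Of 11 tested genes for endogenous ligands, 4 had a log2 fold change above 0 and 7 below. DESeq2 called 1 higher at day 3, Hmgb1, and 1 lower, Vcan. Vcan did not overlap between the days (log2 fold change -2.22 ± 0.60, adjusted p = 0.0948 in edgeR and 0.0047 in DESeq2). S100a8 and S100a9 were the most abundant of the list per length. Their overlapping days followed the libraries high in neutrophil markers, a list to which both also belong.

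**Figure D5:**
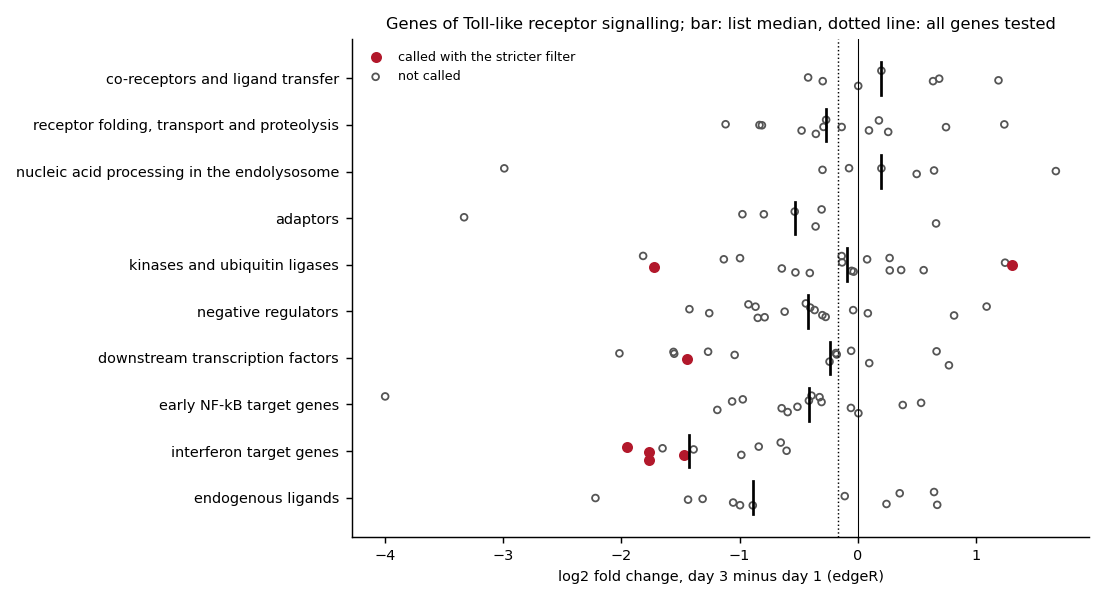
Log2 fold change, day 3 minus day 1 (horizontal axis), of each tested gene in 10 of the 11 pathway lists (rows); black bars are list medians and the dotted line is the median of all genes tested (-0.17). The interferon target genes all lie below 0, with a median of -1.43 and 4 genes called under the stricter filter (filled).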

How the data were processed

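The authors deposited raw counts per gene for the 8 libraries, with no normalisation. The counting tool was featureCounts 1.6.0 with the GRCm39 gene models of Ensembl 106, per the file headers, with no option recorded for strand, read pairs or reads with several positions. The submitters' processing notes also name Trimmomatic and DESeq2. An aligner name was not given in the sources used here. Between 73.0% and 86.0% of counts from 2 to 20 were even, which both mates of a read pair being counted would give, so counts probably overstate fragments. The letters of the deposited columns match the sample titles but partly differ from those in the recorded command. They served as names, and as a trial pairing of libraries a to c in an alternative.

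Symbols were found for 52081 of 55414 genes (94.0%). Genes were kept with filterByExpr (minimum count 10), scaled by TMM, and tested with the two-sided quasi-likelihood F test of edgeR 4.0.16 in R 4.3.3, with p-values adjusted by Benjamini-Hochberg over all tested genes. Standard errors are the size of the log2 fold change divided by the square root of F. Alternatives used DESeq2 1.42.0, limma voom 3.58.1, other scalings and filters, halved counts, and libraries left out. Coding sequences were the longest open reading frame of protein-coding GENCODE transcripts. The fits were tested on simulated data.

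The members, the lists and the rule for named genes were chosen with earlier results of these data known. The rule names all members, called genes and the 2 most abundant genes per length of each pathway list, the genes most and least like each member over the libraries, and the 2 most abundant markers of a marker list that moves with a member. Some items that the rule names are not reported here.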

Additional observations from a re-analysis of the deposited data

Results flagged for a closer look

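In day 3 b, Tlr7 had 78.6 CPM and Cd14 had 15851 CPM. In both genes this library lay far from the other 4 of day 3: the gap to the nearest one took up 0.728 of the group's range for Tlr7 and 0.717 for Cd14, above the critical value of 0.71 for 5 libraries. They were 2 of 11 measures examined in this way, of which chance picks out about 5%. The same library had the highest summed neutrophil markers, 5157 CPM. It was also the day 3 library highest in summed inflammatory monocyte markers, 10355 CPM, and in each of the early NF-kB target genes. The part of these in the flagged values was not tested.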

How the results depend on the processing

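The number of genes called over the whole table depended strongly on the setting. Against 2 genes in edgeR, it was 1347 with no filter on low counts, 146 with the stricter filter, 1021 with DESeq2, 825 with limma voom, 46 with halved counts and 735 at an adjusted p under 0.1. Leaving out 1 library gave between 0 and 59 calls, with 59 without day 1 b, 31 without day 3 b, 1 without day 1 c and 0 without any of the other 5. Without day 1 a and day 3 b together, a setting chosen after seeing the data, it was 25. The labels do not say whether the letters a to c pair the libraries, and the letters partly differ from those in the recorded command. The correlations of same-letter deviations from the day means were 0.0725, 0.00784 and 0.011, and those of different letters lay between -0.0897 and 0.0739. With 3 libraries per day these values cannot decide whether libraries were paired. With the letter as replicate block 0 genes were called over those 6 libraries, as without the block.

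The number of members called was 1 with DESeq2 and 1 at an adjusted p under 0.1, in both cases Tlr4, and 0 in each of the other settings run. Of 179 alternative values of the members' log2 fold changes, 164 kept direction and call, 14 changed sign and 1 gained a call. The sign changes were all in Tlr6, Tlr8, Tlr13 and Cd14, whose values were near 0. Tlr8 was 0.022 with limma voom and 0.63 without day 1 a and day 3 b, where Tlr13 was -0.012 and Cd14 -0.24. Tlr6 was 0.090 over the letters a to c with the replicate block and 0.094 without it. Leaving out single libraries gave values between -0.29 and 0.43 for Tlr8, between -0.16 and 0.22 for Cd14, between -0.083 and 0.20 for Tlr13 and between -0.14 and 0.017 for Tlr6. The cause of these changes was not tested. The difference in endosomal share lay between 7.23 and 12.1 percentage points with 1 library left out, and was 10.3 with CPM not divided by length, 12.2 without Tlr1 and Tlr6, and 14.1 without day 1 a and day 3 b. The edgeR intervals of all members except Tlr4 leave changes of either sign possible, and those of Tlr3, Tlr7, Tlr8 and Tlr9 were the widest.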

Other observations

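The other mouse Toll-like receptor genes were close to absent, apart from Tlr5. Tlr5, the receptor for bacterial flagellin, had 12.7, 3.58, 13.99, 9.86 and 14.03 CPM in day 3 libraries a to e, against 6.59, 6.79 and 32.0 CPM in day 1 libraries a to c, with overlapping days (log2 fold change -0.48 ± 0.64, edgeR adjusted p = 0.792). Its log2 fold change was 0.70 without day 1 c, the highest library. Tlr11 and Tlr12, which recognise profilin of protozoan parasites, were at 0 CPM in every day 3 library, and reached at most 0.1001 and 0.133 CPM at day 1. Cd180 and Ly86, a receptor resembling Tlr4 and its secreted partner, had 48.6 ± 19.8 and 602 ± 100.1 CPM at day 3 and 59.7 ± 27.6 and 374 ± 166 CPM at day 1 (SD, n = 5 and 3). Both overlapped between the days, and both were chosen after their values were seen.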
